A study of Mus musculus with 12 samples.

Results

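Aminoacyl-tRNA synthetases were described in H9c2 cells, a rat-derived cardiomyoblast line that the GEO labels list as mouse, from mRNA sequencing of 12 libraries. The 36 members were chosen by gene symbol from the 54345 genes of the deposited table: 20 cytosolic enzymes or subunits and 16 mitochondrial enzymes, whose symbols end in 2. Of these, 35 were matched by symbol and Mars1 by its older symbol Mars. Lars2 was kept apart from the other 15 mitochondrial enzymes because its sequence resembles ribosomal RNA. The 4 groups had 3 libraries each, and all were harvested after 6 h. Unt cells were untreated, DOX cells received doxorubicin, D_DXZ cells received doxorubicin and dexrazoxane (DXZ, a clinical cardioprotective agent), and D_MgHCF cells received doxorubicin and MgHCF NCs, the magnesium hexacyanoferrate nanocatalyst under study. No group received dexrazoxane or MgHCF alone, and the doses in the sequenced cells were not given in the sources used here. All cells came from the same wild-type line, and nothing says whether the replicates were separate cultures, so p-values measure the spread between these libraries.

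Each aminoacyl-tRNA synthetase joins an amino acid to its matching tRNA, the step that supplies charged tRNA to the ribosome. Most amino acids have separate nuclear genes for the cytosolic and the mitochondrial enzyme, whereas Kars and Gars each encode the enzymes of both compartments. Several cytosolic enzymes (Eprs, Iars, Lars, Mars1, Qars, Rars, Kars and Dars) sit together in a multisynthetase complex. Many cytosolic genes are also known targets of ATF4, the transcription factor of the amino acid response, through a promoter element with the core TGATGNAA.

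The promoter windows with that element are shown because it was found in cytosolic but not in mitochondrial promoters, a property that uses no expression value. RefSeq promoters (GRCm38.p6, 250 bases before to 50 bases after the start) were matched for 13 cytosolic and 13 mitochondrial members without Lars2. On either strand, 5 of the 13 cytosolic promoters (38.5%) held TGATGNAA, none of the 14 mitochondrial promoters did, and 3.97% of all 32851 promoters did. The 5 genes were Yars, Gars, Aars, Iars and Tars, all on the list of amino acid response members, of which 8 had a promoter. The windows below are written 5′ to 3′ on the strand of the gene, with the element in capitals.
Yars, chr4:129189826-129189913, plus strand: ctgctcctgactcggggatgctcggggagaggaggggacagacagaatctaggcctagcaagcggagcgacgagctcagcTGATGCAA
Gars, chr6:55037913-55038000, plus strand: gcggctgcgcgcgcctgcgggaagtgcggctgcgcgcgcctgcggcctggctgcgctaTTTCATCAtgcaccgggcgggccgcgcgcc
Aars, chr8:111033690-111033777, plus strand: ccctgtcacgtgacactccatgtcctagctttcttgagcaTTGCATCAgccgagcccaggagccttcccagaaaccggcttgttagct
Iars, chr13:49682057-49682144, plus strand: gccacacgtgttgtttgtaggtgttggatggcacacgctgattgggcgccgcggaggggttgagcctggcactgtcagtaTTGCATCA
Tars, chr15:11399659-11399746, minus strand: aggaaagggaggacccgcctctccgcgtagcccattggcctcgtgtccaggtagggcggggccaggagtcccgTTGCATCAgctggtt
Counted from the start base as 0, the first base of the element lay at 3 in Yars, -30 in Gars, -112 in Aars, 7 in Iars and -15 in Tars. Aars held another match at 9, outside the window shown. In Yars the element reads in the TGATGNAA orientation, and in the other 4 genes as its reverse complement. For comparison, the E-box CACGTG was in 30.8% of the cytosolic, 7.14% of the mitochondrial and 7.15% of all promoters. The ETS motif CCGGAAGT was in 15.4%, 7.14% and 3.89%, and the palindromic NRF1 motif in 0, 0 and 0.971%. The motifs were counted separately, so a promoter can hold more than 1 of them, as in Aars, whose window also holds CACGTG. A match is a description of the sequence and not a bound site.

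The deposited unit is FPKM, which divides fragments by gene length and by a size factor of the library, so levels of different genes are compared in this unit. The line is of rat origin while the reads were assigned to mouse genes, and how well the reads of each gene match was not tested. This bears on every comparison of levels between genes, and the promoter sequences above are those of the mouse. Each library held between 16626514 and 19365119 reads on genes, and whole reads were recovered from 100% of the values. The scaling in the FPKM equals a median-ratio factor, which sets libraries to equal medians. Summed FPKM ranged from 216899 to 230292 in Unt and from 498756 to 627769 in DOX, and a single gene annotated as a miRNA, Gm23935, averaged 6771 FPKM in Unt and 57480 in DOX. Among genes with a mean FPKM of at least 1, the median log2 fold change was 0.05 for DOX against Unt in the deposited scaling, -1.18 with TPM and -0.69 with FPKM over the summed reads. The direction of DOX and D_DXZ against Unt therefore depends on the scaling, whereas the same median for D_MgHCF against Unt was -0.08, -0.23 and -0.07. For D_MgHCF against DOX it was -0.09, 0.99 and 0.67, so directions in that comparison can depend on the scaling as well. D_MgHCF replicate 3 stood apart from replicates 1 and 2 for several members, and the calls and directions that change without it are given beside the results. Of the markers checked, the muscle genes Myod1, Myf5, Myog, Nkx2-5 and Myh6 averaged 0 FPKM in Unt, and Des averaged 1.46, Mef2c 0.933, Tnnt2 0.133 and Actc1 0.00819. The cardiac factor Gata4 averaged 10.3 FPKM in Unt, 3.35 in DOX, 2.93 in D_DXZ and 19.2 in D_MgHCF, and the collagen gene Col1a1 20.0, 70.6, 55.7 and 23.7. In the same order, Des averaged 1.46, 0.552, 0.542 and 0.861, and Mef2c 0.933, 0.297, 0.460 and 0.693. Tnnt2, at 0.133, 0.903, 0.495 and 0.424, rose in DOX where Gata4 fell. Of the fibroblast markers, Col3a1 averaged 15.6, 49.7, 43.0 and 15.2. Pdgfra, at 0.718, 0.352, 0.433 and 0.537, fell in DOX where Col1a1 rose. Defining markers of leukocytes, endothelium, epithelium and neurons (Ptprc, Pecam1, Epcam and Rbfox3) averaged at most 0.0304 FPKM in Unt and at most 0.474, for Pecam1, in D_MgHCF. The part of these differences in the results was not tested.

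In untreated cells the cytosolic enzymes were the higher class. Gars, the glycyl enzyme, had the highest mean at 194 ± 15.7 FPKM (SD, n = 3), followed by the asparaginyl enzyme Nars at 180.4. The glutaminyl enzyme Qars was the lowest cytosolic member at 19.0 ± 1.46 FPKM, still above every mitochondrial member. Gars and Nars did not separate beyond their spread, since Nars ranged from 174 to 184 and Gars from 179 to 210.1 FPKM. Among mitochondrial members, Lars2 was highest at 15.96 ± 1.26 FPKM and Iars2 followed at 11.05 ± 0.626, and the asparaginyl enzyme Nars2 was lowest at 2.25. Summed over members, the cytosolic enzymes gave 1398 ± 76.5 FPKM and the mitochondrial enzymes without Lars2 gave 76.0 ± 5.37, a ratio of 18.4 ± 0.293 (SD, n = 3).

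**Figure D1:**
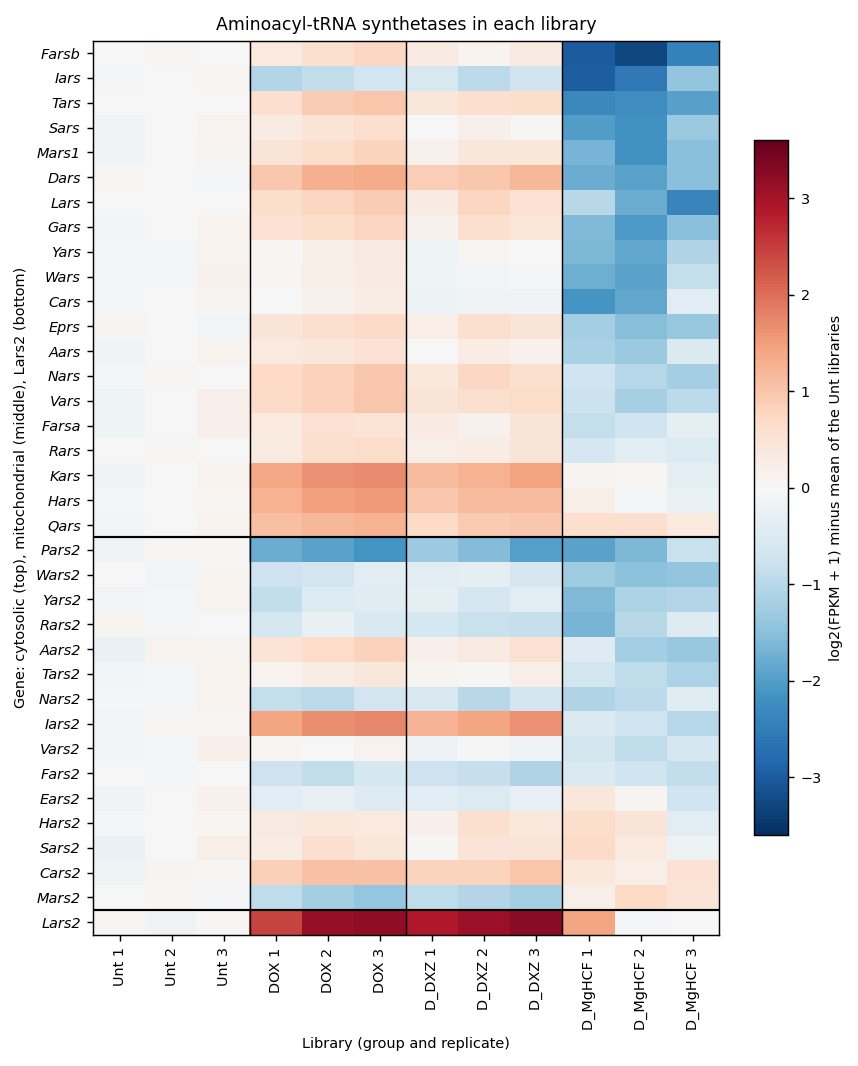
Heat map of log2(FPKM + 1) of each of the 36 members (rows) in each of the 12 libraries (columns), as the difference from the member's mean over the 3 Unt libraries; red is higher and blue is lower. The cytosolic rows are mostly blue in the 3 D_MgHCF libraries, with Kars, Hars and Qars near or above 0, and Lars2 is red in all DOX and D_DXZ libraries.

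Members were next compared between D_MgHCF and Unt, which shows how far cells given doxorubicin with MgHCF differed from untreated cells. Of the 20 cytosolic members, 17 were lower in D_MgHCF and only Qars was higher (limma, adjusted p under 0.05), against 15.7% of all 25044 genes tested lower and 24.3% higher. Among genes with a mean FPKM of at least 1, 29.0% were lower and 22.5% higher. The median log2 fold change of the cytosolic members was -1.49, against 0.05 over all genes tested, and 3.16% of the 11515 genes with a mean FPKM of at least 1 lay below -1.49. Of the 15 mitochondrial members, 10 were lower and 1 was higher, with a median of -0.76. With a pseudocount of 0.1 in place of 1, the medians were -1.56 for the cytosolic and -1.05 for the mitochondrial members. The cytosolic counts were 18 lower and 1 higher with TPM, and 17 lower and 1 higher with summed reads or quantile normalization. With only the libraries of D_MgHCF and Unt in the fit, 16 were lower. Without D_MgHCF replicate 3, 17 cytosolic members were lower and the median was -1.57. The summed cytosolic level was 595 ± 60.7 FPKM and that of the mitochondrial members 47.4 ± 4.11 (SD, n = 3). In bulk RNA, fewer cells with an mRNA and less of it per cell cannot be told apart.

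The largest fall was in Farsb (chr1:78417975-78488897), the beta subunit of cytosolic phenylalanyl-tRNA synthetase. Farsb had 35.6, 36.8 and 35.3 FPKM in Unt, and 3.63, 2.82 and 5.78 in D_MgHCF. Every D_MgHCF library was far below every Unt library, and the ratio of means was 8.80-fold lower (log2 fold change -2.90 ± 0.18 SE, limma adjusted p = 1.12e-05). Farsa (chr8:84856989-84869257), the alpha subunit of the same enzyme, had 22.5, 24.7 and 28.4 FPKM in Unt and 13.3, 14.9 and 19.4 in D_MgHCF. Its groups did not overlap either, but the change was smaller (log2 fold change -0.64 ± 0.14 SE, limma adjusted p = 0.00532). Both subunits form a single enzyme, and a ratio of FPKM within a library is free of library scaling. The Farsa to Farsb ratio was 0.632, 0.670 and 0.804 in Unt, 0.701, 0.696 and 0.587 in DOX, and 0.679, 0.714 and 0.772 in D_DXZ. In D_MgHCF it was 3.67, 5.27 and 3.36, so all 3 libraries lay above the 9 others, which overlapped between groups.

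Iars (chr13:49682100-49734267), the isoleucyl enzyme, had the next lowest log2 fold change. Its levels were 83.3, 86.0 and 90.3 FPKM in Unt and 10.1, 13.7 and 31.5 in D_MgHCF, a 4.69-fold difference of means with replicate 3 the highest of its group (log2 fold change -2.33 ± 0.31 SE, limma adjusted p = 0.000353). Iars shares 96.0% of 1656 bases with the pseudogene Gm4849, which averaged 0.0539 FPKM in Unt. Tars, the threonyl enzyme, had 37.5, 38.1 and 38.9 FPKM in Unt and 6.85, 7.34 and 9.20 in D_MgHCF, a 4.90-fold difference of means (log2 fold change -2.16 ± 0.12 SE, limma adjusted p = 1.02e-05). Eprs, which carries both glutamyl and prolyl activity, had 39.4, 36.7 and 34.3 FPKM in Unt and 15.1, 11.9 and 13.7 in D_MgHCF (log2 fold change -1.38, limma adjusted p = 2.99e-05). Gars had 179, 192 and 210.1 FPKM in Unt and 63.4, 45.7 and 67.7 in D_MgHCF (log2 fold change -1.72, limma adjusted p = 6.55e-05). None of these genes overlapped between the groups. The other cytosolic members that fell had log2 fold changes between -1.84 in Sars and -0.50 in Rars.

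Kars, Hars and Qars went apart from the rest. Kars (chr8:111993443-112011323), the lysyl enzyme of both compartments, had 45.7, 49.96 and 55.2 FPKM in Unt and 54.1, 52.9 and 39.9 in D_MgHCF, so the groups overlapped (log2 fold change -0.05 ± 0.14 SE, limma adjusted p = 0.826). Without D_MgHCF replicate 3 its log2 fold change was 0.09. Hars, the histidyl enzyme, had 39.6, 41.2 and 43.1 FPKM in Unt and 47.5, 39.7 and 34.9 in D_MgHCF (log2 fold change -0.03 ± 0.12 SE, limma adjusted p = 0.863), and without D_MgHCF replicate 3 its log2 fold change was 0.07. Hars and Hars2 overlap by 198 bases on opposite strands, and the library kit is not stated to keep strand, so their reads cannot be told apart there. Qars (chr9:108507706-108515941) rose from 17.7, 18.6 and 20.6 FPKM to 29.6, 29.2 and 24.4, without overlap (log2 fold change 0.52 ± 0.11 SE, limma adjusted p = 0.00412).

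**Figure D2:**
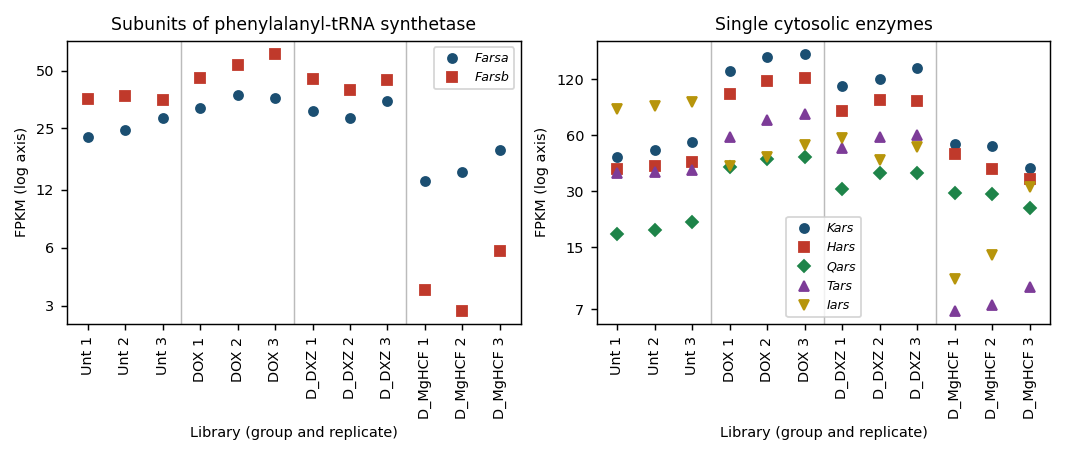
FPKM (log axis) of Farsa and Farsb (left) and of Kars, Hars, Qars, Tars and Iars (right) in each of the 12 libraries; each point is a library. Farsb lies above Farsa in the 9 libraries of Unt, DOX and D_DXZ and below it in the 3 D_MgHCF libraries, where Tars and Iars are also low.

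Among mitochondrial members, the largest falls against Unt were in Pars2 and Wars2. Pars2, the prolyl enzyme (chr4:106651069-106655282), had 3.24, 3.78 and 3.77 FPKM in Unt and 0.215, 0.482 and 1.61 in D_MgHCF (log2 fold change -1.45 ± 0.27 SE, limma adjusted p = 0.00214). The D_MgHCF values differed among themselves and rest on 14, 38 and 122 reads. Wars2, the tryptophanyl enzyme, had 2.41, 2.27 and 2.74 FPKM in Unt and 0.424, 0.244 and 0.288 in D_MgHCF, on 53, 37 and 42 reads (log2 fold change -1.40 ± 0.14 SE, limma adjusted p = 8.22e-05). Cars2, the cysteinyl enzyme, was the mitochondrial member that rose, from 2.35, 2.98 and 2.83 FPKM to 3.85, 3.37 and 4.28. Its change was small (log2 fold change 0.38 ± 0.12 SE, limma adjusted p = 0.0283), and the call was lost without Unt replicate 1, Unt replicate 3 or D_MgHCF replicate 1. Cars2 overlaps Naxd on the opposite strand by 984 bases. Ears2, Hars2, Sars2 and Mars2 did not pass the test. Without D_MgHCF replicate 3, Hars2 (log2 fold change 0.56 in place of 0.23, limma adjusted p = 0.00334) and Sars2 (0.52 in place of 0.29, limma adjusted p = 0.0436) passed it as higher, and Ears2 turned from -0.07 to 0.25 without passing.

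DOX was then compared with Unt to see how doxorubicin alone moved the members. In the deposited scaling, 13 of the 20 cytosolic members were higher and only Iars was lower (limma, adjusted p under 0.05), against 18.6% of all genes tested higher and 19.9% lower. Among genes with a mean FPKM of at least 1, 36.7% were higher and 33.3% lower. Of the 15 mitochondrial members, 3 were higher and 6 were lower. The median log2 fold change was 0.61 for the cytosolic and -0.38 for the mitochondrial members. The cytosolic direction did not hold in other scalings: 0 were higher and 16 lower with TPM (median -0.74), 3 higher and 7 lower with summed reads (median -0.32), and 2 higher and 12 lower with quantile normalization (median -0.69). Over genes with a mean FPKM of at least 1, the medians were -1.18, -0.69 and 0.03 in the same order. The cytosolic median thus lay above that of these genes with TPM and summed reads, and below it with quantile normalization. TPM and summed reads change each library by a single factor, so they bear little on the position of members relative to each other. Quantile normalization also changed that position: its mitochondrial median was 0.06, above the cytosolic -0.69. The order of the 2 classes in this comparison therefore depends on the normalization as well.

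Kars had 134, 159 and 165 FPKM in DOX, against 45.7 to 55.2 in Unt, and its fold change was the highest of the cytosolic members (log2 fold change 1.58 ± 0.14 SE, limma adjusted p = 1.79e-05). Hars had 100.5, 118 and 122 FPKM in DOX (log2 fold change 1.43 ± 0.12 SE, limma adjusted p = 1.40e-05). Kars and Hars kept a positive fold change in every scaling tried, although not every one of these was called, whereas Dars and Qars turned negative with TPM. Iars went the other way, at 41.2, 46.1 and 53.3 FPKM in DOX. Its groups did not overlap and its direction held in every alternative tried, but its test was near the threshold (log2 fold change -0.88 ± 0.31 SE, limma adjusted p = 0.0478). That call was lost without any 1 library of Unt, DOX or D_DXZ, or without D_MgHCF replicate 2. Gars and Eprs were higher in the deposited scaling (log2 fold change 0.65 and 0.58) and turned negative with TPM, summed reads and quantile normalization, as did Farsa and Farsb.

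Iars2, the mitochondrial isoleucyl enzyme (chr1:185284726-185329396), showed the opposite of Iars. It had 10.3, 11.3 and 11.5 FPKM in Unt and 31.1, 37.1 and 38.6 in DOX (log2 fold change 1.60 ± 0.15 SE, limma adjusted p = 1.98e-05). Iars2 overlaps Rab3gap2 on the opposite strand by 2034 bases. Rab3gap2 averaged 6.62 FPKM in Unt, 6.82 in DOX, 6.46 in D_DXZ and 4.89 in D_MgHCF, and its part in the Iars2 values was not tested. Cars2 was also higher, at 5.73, 6.67 and 6.69 FPKM in DOX (log2 fold change 0.99 ± 0.12 SE, limma adjusted p = 7.98e-05), but turned negative with TPM, and Naxd, which overlaps it on the opposite strand, averaged 7.73 FPKM in Unt and 18.5 in DOX. Pars2 fell to 0.319, 0.202 and 0.0279 FPKM in DOX, which rest on 15, 8 and 1 reads (log2 fold change -1.96 ± 0.27 SE, limma adjusted p = 0.000186). Mars2, the mitochondrial methionyl enzyme (chr1:55237177-55248470), had 2.40, 2.46 and 2.18 FPKM in Unt and 0.770, 0.421 and 0.276 in DOX (log2 fold change -1.18 ± 0.17 SE, limma adjusted p = 0.000287). Iars2, Pars2 and Mars2 kept their call and direction in every alternative tried. The remaining mitochondrial members that fell were Nars2, Fars2, Wars2 and Yars2.

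**Figure D3:**
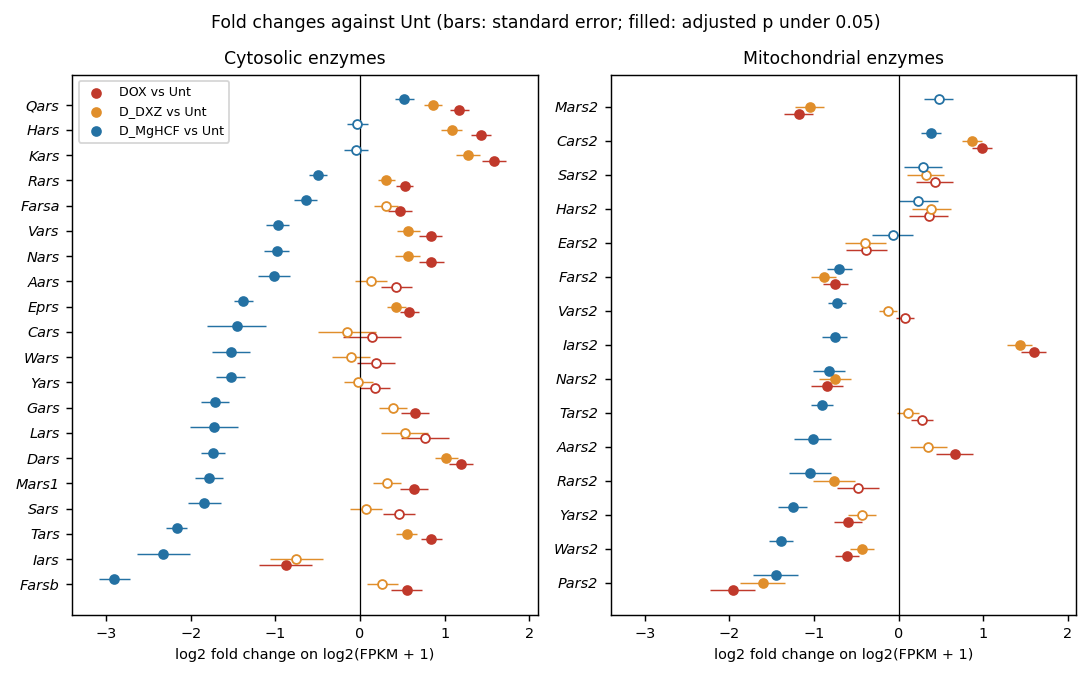
Log2 fold change against Unt on the log2(FPKM + 1) scale of the 20 cytosolic (left) and 15 mitochondrial (right) members, for DOX, D_DXZ and D_MgHCF; bars are standard errors from the fit and filled points passed an adjusted p of 0.05. In the deposited scaling most cytosolic points of D_MgHCF lie left of 0 and most of DOX lie right of it, and the DOX side turns with other scalings.

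In D_DXZ against Unt, 9 cytosolic members were higher and 0 were lower, with a median of 0.36, against 15.9% and 18.0% of all genes tested. Among genes with a mean FPKM of at least 1, 31.9% were higher and 31.5% lower. At an unadjusted p under 0.05 in limma, 1 cytosolic member, Iars, was lower, when 40.4% of all genes tested passed in either direction, and voom on the recovered reads called 1 lower at an adjusted p under 0.05. Here too the direction turned with scaling, to 0 higher and 17 lower with TPM. There the cytosolic median was -0.83, and that of genes with a mean FPKM of at least 1 was -1.10. Of the mitochondrial members, 2 were higher (Iars2 and Cars2) and 6 were lower. Iars2 had 27.4, 31.2 and 36.5 FPKM in D_DXZ, and Mars2 had 0.790, 0.601 and 0.464, both far from the Unt levels and overlapping those of DOX.

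D_DXZ was compared directly with DOX to see what dexrazoxane added. No member was called in limma at an adjusted p under 0.05, nor was any of the 25044 genes (0.0%), and voom on the recovered reads called no member. At an unadjusted p under 0.05, 3 cytosolic members (Hars, Qars and Tars) were lower and 0 were higher, no mitochondrial member passed, and 9.54% of all genes did. The differences were small: the log2 fold changes of the cytosolic members lay between -0.39 and 0.13, with a median of -0.28. Hars had 81.4, 92.8 and 91.8 FPKM in D_DXZ against 100.5 to 122 in DOX (log2 fold change -0.35 ± 0.12 SE, limma adjusted p = 0.428). The 2 groups did not overlap in 9 of the 20 cytosolic members, against 16.3% of all genes tested. The median of all genes with a mean FPKM of at least 1 was -0.08 in the deposited scaling and 0.07 with TPM, where the cytosolic median was -0.11.

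D_MgHCF was also compared with DOX, to see what MgHCF added to doxorubicin. All 20 cytosolic members were lower in D_MgHCF (limma, adjusted p under 0.05), against 20.1% of all genes tested lower and 31.4% higher, with a median of -1.76. Among genes with a mean FPKM of at least 1, 40.1% were lower and 33.5% higher. Of the mitochondrial members 7 were lower and 1 was higher. With TPM, 13 cytosolic members were lower and 1 was higher, and the mitochondrial members turned to 2 lower and 7 higher. The TPM median was -0.58 for the cytosolic and 0.49 for the mitochondrial members, against 0.99 over genes with a mean FPKM of at least 1. Both class medians thus lay below that of these genes. With quantile normalization, 15 cytosolic members were lower and 0 higher. Against DOX, Farsb was lowest, with a 13.1-fold difference of means from 45.7, 53.7 and 61.3 FPKM in DOX (log2 fold change -3.46 ± 0.18 SE, limma adjusted p = 2.39e-06). Tars, at 59.1, 72.5 and 77.8 FPKM in DOX, followed with an 8.95-fold difference (log2 fold change -3.01 ± 0.12 SE, limma adjusted p = 2.13e-06). Both kept their call in every alternative tried.

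The mitochondrial member that rose against DOX was Mars2. It had 2.89, 4.49 and 3.66 FPKM in D_MgHCF, above the 0.276 to 0.770 of DOX and also above the 2.18 to 2.46 of Unt (against DOX: log2 fold change 1.65 ± 0.17 SE, limma adjusted p = 3.21e-05). Against Unt its change did not pass the test (log2 fold change 0.47, limma adjusted p = 0.0524). Iars2 was 5.75-fold lower than in DOX, at 7.43, 6.30 and 4.85 FPKM (log2 fold change -2.36 ± 0.15 SE, limma adjusted p = 3.08e-06), and below Unt as well. Aars2, the alanyl enzyme, was 3.85-fold lower than in DOX, at 4.29, 2.17 and 1.85 FPKM (log2 fold change -1.68 ± 0.22 SE, limma adjusted p = 0.000127). Without D_MgHCF replicate 3, Ears2 was also called higher than in DOX (log2 fold change 0.63 in place of 0.31) and Rars2 lower (-0.86 in place of -0.57). Without it, 3 members that were not called in either fit changed sign: Hars2 from -0.12 to 0.20, Sars2 from -0.14 to 0.09 and Nars2 from 0.02 to -0.18. D_MgHCF shares its DOX and Unt libraries with the comparisons above, so these counts are not independent of them.

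By group means, 19 of the 20 cytosolic members were highest in DOX and 19 were lowest in D_MgHCF in the deposited scaling. The exceptions were Iars, highest in Unt, and Qars, lowest in Unt. The 19 include Kars and Hars, whose D_MgHCF and Unt libraries overlapped, and without D_MgHCF replicate 3 the number was 17. The mitochondrial members had no such common order: 7 were highest in Unt, 6 in DOX, 1 in D_DXZ and 1 in D_MgHCF. The lowest mean was in D_MgHCF for 7 of them, in Unt for 3, in DOX for 3 and in D_DXZ for 2.

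Within each library, the mean log2(FPKM + 1) of the cytosolic members was set against that of the mitochondrial members without Lars2. The difference was 3.39 ± 0.017 (SD, n = 3) in Unt, 4.18 ± 0.090 in DOX, 3.97 ± 0.10 in D_DXZ and 2.69 ± 0.23 in D_MgHCF. No library of D_MgHCF, at 2.61, 2.503 and 2.95, reached the lowest Unt library, at 3.38. The lower difference in D_MgHCF kept its direction with a median over members and with quantile normalization. With a pseudocount of 0.1 in place of 1 the gap between these groups was smaller, at 3.16 in D_MgHCF and 3.66 in Unt. The higher difference in DOX did not: it was 0.79 above Unt with the mean over members, 0.10 with the median and -0.67 with quantile normalization. The ratio of summed FPKM, which a single factor per library does not change, was 18.4 in Unt, 22.8 in DOX, 20.9 in D_DXZ and 12.6 ± 1.83 in D_MgHCF.

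**Figure D4:**
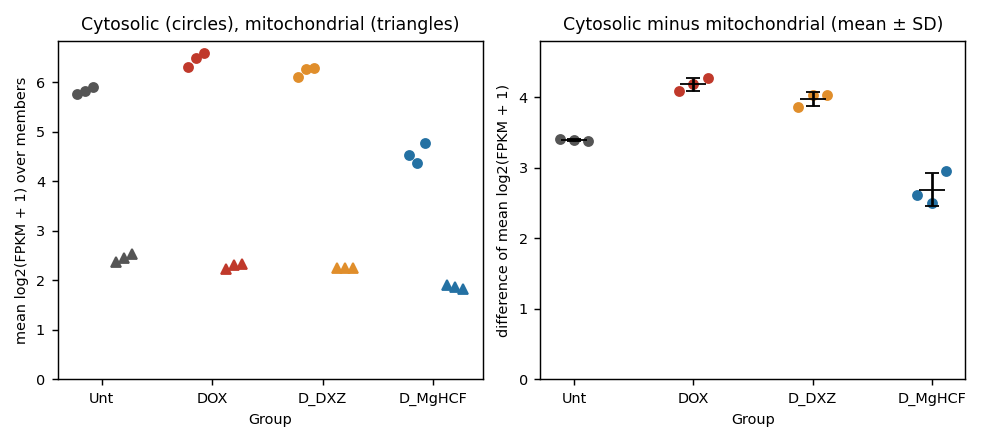
Left, mean log2(FPKM + 1) over the 20 cytosolic (circles) and 15 mitochondrial (triangles) members in each library, without Lars2; right, their difference in each library with the group mean and SD. The 3 D_MgHCF libraries are lowest in both panels, with differences from 2.503 to 2.95 against 3.38 to 3.41 in Unt.

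Enzymes of the same amino acid were compared as ratios within a library, cytosolic over mitochondrial. Over 12 amino acids (without leucine, proline, glutamate and phenylalanine), the ratio was higher in DOX than in Unt for 8 and lower for 4, and in D_MgHCF it was higher for 4 and lower for 8. Of these 12, the methionyl pair had the largest change in DOX against Unt. Mars1 over Mars2 was 36.7 in Unt, 301 in DOX, 178 in D_DXZ and 6.70 in D_MgHCF, as geometric means of 3 libraries. The DOX value rests on 132, 61 and 36 Mars2 reads, and its log2 ratios were 7.28, 8.32 and 9.10. The isoleucyl pair went another way, with Iars over Iars2 at 7.84 in Unt, 1.32 in DOX, 1.62 in D_DXZ and 2.68 in D_MgHCF, where it was 1.72 without replicate 3. Nars over Nars2 was 80.5 in Unt and 405 in DOX, and 114 in D_MgHCF, where the DOX value rests on 82, 58 and 82 Nars2 reads. Aars over Aars2 was 0.26 higher in D_MgHCF than in Unt on the log2 scale, and -0.23 without replicate 3. Eprs over Pars2 was 10.2 in Unt and 457 in DOX, a ratio that rests on the few Pars2 reads given above. Ratios within a library are free of library scaling, but they do not say which enzyme of the pair moved.

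**Figure D5:**
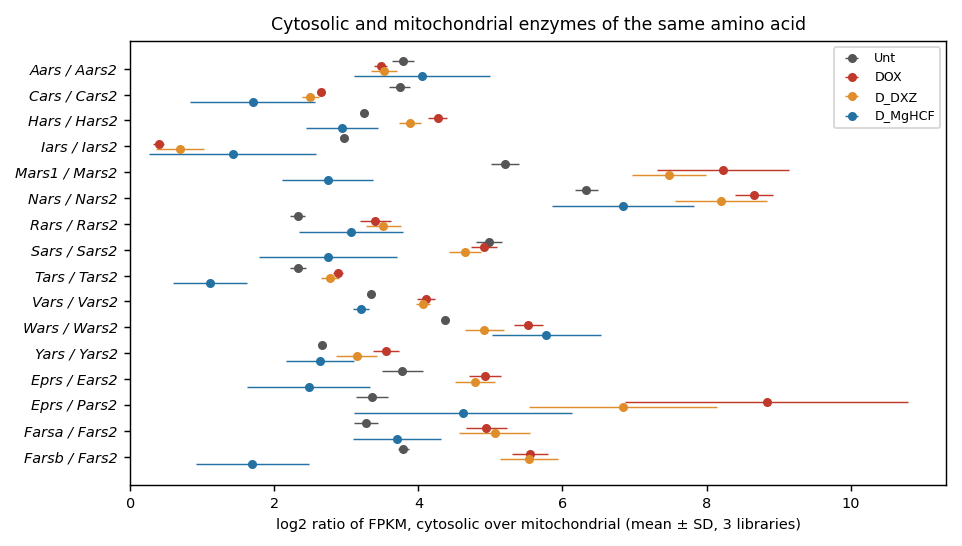
Log2 ratio of FPKM of the cytosolic over the mitochondrial enzyme of the same amino acid, mean and SD over the 3 libraries of each group, with both Eprs pairs and both Phe subunits shown. Mars1 over Mars2 is highest in DOX and lowest in D_MgHCF, whereas Iars over Iars2 is highest in Unt.

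Cytosolic members were also grouped by role. Beside the counts against Unt that follow, 15.7% of all genes tested were lower and 24.3% higher in D_MgHCF, and 19.9% lower and 18.6% higher in DOX. Among genes with a mean FPKM of at least 1, these shares were 29.0% and 22.5% in D_MgHCF, and 33.3% and 36.7% in DOX. Of the 8 members of the multisynthetase complex, 6 fell and Qars rose in D_MgHCF against Unt (median -1.55), and of the 12 outside it 11 fell (median -1.49). Of the 13 members listed as targets of the amino acid response, all fell (median -1.53). Of the other 7, 4 fell and 1 rose (median -0.50), and the difference between these 2 groups of members was not tested. Relative to Unt, the mean of the amino acid response members lay at -1.61, -1.83 and -1.27 in D_MgHCF replicates 1, 2 and 3, and that of the other cytosolic members at -0.76, -0.81 and -0.71. In DOX against Unt, 6 of the 13 were higher and Iars was lower (median 0.58), and all 7 others were higher (median 1.17), in the deposited scaling.

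Lars2, the mitochondrial leucyl enzyme (chr9:123366927-123462666), had 16.9, 14.5 and 16.4 FPKM in Unt, 89.8, 148 and 152 in DOX, and 124, 143 and 160.1 in D_DXZ. In D_MgHCF it had 43.9, 15.04 and 15.9, so replicate 1 lay apart from replicates 2 and 3. DOX was 8.14-fold higher than Unt (log2 fold change 2.91 ± 0.35 SE, limma adjusted p = 8.58e-05). D_MgHCF did not differ from Unt in the test (log2 fold change 0.44 ± 0.35 SE, limma adjusted p = 0.345), and without replicate 1 the value was -0.04. Its transcripts match AA474408 over 97 bases at 94.8% identity and Gm15564 over 72 bases at 98.6%. Of the other genes set beside it, Gm42418 and AY036118 were listed at 0 in every library, and Gm26917 averaged 41.8 FPKM in Unt, 53.3 in DOX, 108 in D_DXZ and 12.9 in D_MgHCF. The level of Gm23935 moved beside Lars2, with 20794, 6768 and 7471 FPKM in D_MgHCF, where replicate 1 was again the highest. The mitochondrial ribosomal RNA mt-Rnr2 averaged 106 FPKM in Unt and 4001 in DOX. In D_MgHCF it had 921, 570 and 209 FPKM, above every Unt library, whereas Lars2 was at its Unt level in replicates 2 and 3. Their part in the Lars2 values was not tested.

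Genes that work with the synthetases were taken from fixed lists, and their counts stand beside the same shares of all genes tested (in D_MgHCF against Unt 15.7% lower and 24.3% higher, in DOX against Unt 19.9% and 18.6%). Among genes with a mean FPKM of at least 1, these shares were 29.0% and 22.5% in D_MgHCF, and 33.3% and 36.7% in DOX. Of the 3 scaffold genes of the multisynthetase complex, Aimp1 (log2 fold change -1.76) and Eef1e1 (-0.76) fell in D_MgHCF against Unt and Aimp2 did not pass the test. Aimp1 had 12.6, 12.4 and 12.2 FPKM in Unt and 1.63, 2.499 and 5.68 in D_MgHCF, with replicate 3 the highest. In DOX, Eef1e1 was the scaffold gene that fell (log2 fold change -1.60). Of 13 genes that act beside tRNA charging, 8 fell in D_MgHCF against Unt. These included Xpot, which exports tRNA from the nucleus (log2 fold change -2.10), and the peptidyl-tRNA hydrolase Ptrh2 (-1.25). In DOX against Unt, 5 of the 13 were higher and 5 lower in the deposited scaling.

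Of 16 other genes of the amino acid response, 10 fell and 0 rose in D_MgHCF against Unt (limma, adjusted p under 0.05), against 15.7% and 24.3% of all genes tested. Among genes with a mean FPKM of at least 1, 29.0% were lower and 22.5% higher. At an unadjusted p under 0.05 in limma, which 49.2% of all genes tested passed, 1 of the 16 was higher. Atf3 went up from 12.8, 13.9 and 15.3 FPKM in Unt to 21.8, 33.0 and 24.6 in D_MgHCF. Trib3 went down from a mean of 153 FPKM in Unt to 12.0 in D_MgHCF. Atf4 had 271, 294 and 295 FPKM in Unt and 31.4, 78.3 and 109 in D_MgHCF (log2 fold change -2.13, limma adjusted p = 0.00336). In DOX it had 27.7, 19.7 and 18.4 FPKM (log2 fold change -3.67). Asns, the asparagine synthetase, had 180.4, 196 and 206 FPKM in Unt and 80.7, 55.7 and 63.8 in D_MgHCF (log2 fold change -1.54, limma adjusted p = 0.000106). Among genes with a mean FPKM of at least 1, 36.7% were higher and 33.3% lower in DOX against Unt. There 5 of the 16 were higher and 8 lower in the deposited scaling, against 18.6% and 19.9% of all genes tested. The serine synthesis genes Psat1 (log2 fold change 1.48) and Phgdh (1.40) were among the higher, and Trib3 (-5.70) and Chac1 (-3.94) among the lower.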

How the data were processed

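NEBNext libraries were made from poly(A) RNA of 12 H9c2 samples and read paired-end at 150 bp. Per the labels, HISAT2 2.0.5 and GRCm38 were used, whereas the counting program and the annotation release are not given in the sources used here. The authors deposited FPKM values with mouse Ensembl identifiers, gene lengths and coordinates. FPKM times gene length gave whole reads (tolerance 0.05) for 100% of values, at 16626514 to 19365119 reads per library, and 0 sample columns were left unused.

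Differences in log2(FPKM + 1) were tested in a single limma model (version 3.58.1, R 4.3.3) of the 4 groups, with a trended prior and without covariates. The 25044 genes tested had a non-zero FPKM in 3 or more libraries. All 36 members passed this filter. Calls used a Benjamini-Hochberg adjusted p under 0.05 over all genes tested, in 5 comparisons. The pseudocount of 1 makes fold changes of low genes smaller. The script was tested on simulated data. Groups were taken from the sample titles. The sample titles do not say whether libraries of the same replicate number were paired, and the paper's supplement used paired t tests on selected genes. The correlation of deviations between same-numbered libraries ranged from -0.165 to 0.306, and was 0.306, 0.033 and 0.220 for D_DXZ and DOX. Such correlations, taken around means of 3 libraries, do not settle whether the libraries were paired.

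Members, gene lists and tests were chosen with earlier results of these data known. Of the fixed list of genes that act beside tRNA charging, 1 is not reported here. Every member may be named, and full values are given for the 2 largest called rises and falls without overlap in each class and for Farsa, Farsb, Eprs, Gars, Kars and Lars2. Sequence matches came from BLAST 2.17.0 on GENCODE M21 transcripts (at least 95% identity over 150 bases, with the shorter matches of Lars2 listed apart). With this rule 13 members share a stretch with another gene, 4 of them with a gene elsewhere, and 19 overlap another gene. Alternatives covered the pseudocount, filters, threshold, scaling, voom, a replicate block and each library left out.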

Additional observations from a re-analysis of the deposited data

How the results depend on the processing

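The fall of the cytosolic members in D_MgHCF against Unt held in every alternative tried, with 16 lower (Cars no longer passed) with 2 groups in the fit, 17 or 18 lower in the others, 1 higher throughout, and 17 lower whichever library was left out. Counts that moved did so mainly with scaling, and the cause was not tested. The median of genes with a mean FPKM of at least 1 moved too. With TPM and summed reads it was -1.18 and -0.69 in DOX against Unt, and 0.99 and 0.67 in D_MgHCF against DOX. In DOX against Unt, the cytosolic members went from 13 higher and 1 lower to 0 and 16 with TPM, 2 and 12 with quantile normalization and 3 and 7 with summed reads, and without a filter on low values 0 were lower. The mitochondrial members went from 3 higher and 6 lower to 1 and 13, 5 and 2, and 1 and 10. In D_DXZ against Unt, the cytosolic members went from 9 and 0 to 0 and 17, 2 and 13, and 2 and 9, and 1 was lower with a filter at 1 FPKM, 2 groups in the fit, voom or an unadjusted p. The mitochondrial members went from 2 and 6 to 1 and 13 with TPM, 1 and 10 with summed reads, and 3 lower with quantile normalization. In D_MgHCF against Unt, the higher mitochondrial count of 1 became 2 with a filter at 1 FPKM, voom or an unadjusted p, and 0 with TPM or 2 groups in the fit. In D_MgHCF against DOX, TPM gave 1 higher and 13 lower cytosolic and 7 higher and 2 lower mitochondrial members, and summed reads gave 1 higher cytosolic and 5 higher and 4 lower mitochondrial members. In D_DXZ against DOX, 3 cytosolic members were lower at an unadjusted p. With 1 library left out, the count of lower cytosolic members ranged from 0 to 1 in DOX and in D_DXZ against Unt, and that of higher mitochondrial members from 0 to 3 in D_MgHCF against Unt and from 1 to 2 against DOX. The highest, 3, came without D_MgHCF replicate 3.

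Signs turned in DOX against Unt with TPM, quantile normalization and summed reads for Eprs (log2 fold change -0.76, -0.42 and -0.35), Farsa (-0.87, -0.27 and -0.45), Farsb (-0.79, -0.44 and -0.37) and Gars (-0.72, -1.01 and -0.30), and with TPM for Cars2 (-0.13). Farsa in D_MgHCF against DOX was 0.057 with TPM. In D_MgHCF against Unt with a library left out, Kars ranged from -0.12 without D_MgHCF replicate 1 to 0.092 without D_MgHCF replicate 3, and Lars2 from -0.038 without D_MgHCF replicate 1 to 0.70 without D_MgHCF replicate 2.

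The cytosolic minus mitochondrial difference in DOX against Unt was 0.79, and 1.06 with a pseudocount of 0.1, 0.10 with the median, 0.60 with Lars2 and -0.67 with quantile normalization. In D_DXZ against Unt it was 0.58, and 0.78, -0.10, 0.38 and -0.64. Quantile normalization gave -1.05 in D_MgHCF against Unt, 0.029 in D_DXZ against DOX and -0.38 in D_MgHCF against DOX, where the median gave -0.93. At an unadjusted p, the amino acid response genes had 5 higher in D_DXZ against Unt, 1 in D_MgHCF against Unt and 2 in D_DXZ against DOX.

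Chosen after seeing the data, leaving out a D_MgHCF library gave log2 differences from Unt from -0.23 without replicate 3 to 0.71 without replicate 1 for Aars over Aars2, and from -0.21 without replicate 1 to 0.24 without replicate 2 for Yars over Yars2, and kept the sign of the other pair ratios.

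The main fit did not pair libraries by replicate number. With a replicate block, 17 cytosolic members were still lower in D_MgHCF against Unt, the higher mitochondrial count in DOX against Unt was 2 in place of 3, and the lower mitochondrial count in D_DXZ against Unt was 4 in place of 6. Depth limits Pars2 most, with as few as 1 read in a DOX library.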

Other observations

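Gene span, the distance from first to last base of a gene, was set against the fold change of D_MgHCF against Unt. Over the 20 cytosolic members, longer genes had lower fold changes (Spearman's rho -0.55). Over the 15 mitochondrial members rho was -0.02, and over 9981 protein-coding genes with a mean FPKM of at least 1 it was -0.22. Over the cytosolic members rho was -0.34 for DOX and -0.36 for D_DXZ against Unt, -0.42 for D_MgHCF against DOX and 0.43 for D_DXZ against DOX, and over the protein-coding genes -0.16, -0.13, 0.00033 and 0.21. The shortest cytosolic gene was Qars, at 8.24 kb, which rose, and the longest was Farsb, at 70.9 kb, which fell most. Members of similar span could differ: Tars, at 17.4 kb, had a log2 fold change of -2.16, and Kars, at 17.9 kb, -0.05. These are descriptions across genes of the same libraries, and genes are not replicates. Farsa, whose gene spans 12.3 kb, fell less than Farsb.

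Aars contains the annotated gene Exosc6 on the same strand over 1326 bases, and Exosc6 was listed at 0 in all 12 libraries. Mars1 overlaps Ddit3 by 68 bases on the opposite strand. Ddit3, a stress-responsive transcription factor, averaged 51.5 FPKM in Unt, 11.6 in DOX and 50.2 in D_MgHCF, whereas Mars1 averaged 86.1, 135 and 24.8.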
